A study of Mus musculus with 20 samples.

Results

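The Hox genes are the homeobox genes of the Hoxa, Hoxb, Hoxc and Hoxd clusters, and their members were taken as every symbol of the form Hox, a cluster letter and a number that occurs once in the deposited expression table. This gave 37 genes of 24769 symbols that occur once: 11 in Hoxa, 9 in Hoxb, 8 in Hoxc and 9 in Hoxd. By number, 7 were anterior (1 to 3), 15 central (4 to 8) and 15 posterior (9 to 13). Hoxb1 and Hoxc12 were not analysed here. The 20 libraries are bulk RNA-seq of 10 tissues of wild-type mice: brain, heart, lung, thymus, liver, spleen, intestine, kidney, ovary and uterus. Each tissue had 1 control library, whose label names sesame oil alone (spelled "sasame oil"), and 1 library labelled DHEA. DHEA is dehydroepiandrosterone, an adrenal steroid and precursor of sex hormones that serves in mice to model androgen excess. The protocols describe bulk RNA-seq while the sample descriptions also name 10x Genomics, and the values are read here as bulk. The sources used here do not give the dose, duration, age, strain, number of mice, oestrous stage, the sampled segment of brain, intestine and uterus, or the tissues that shared an animal.

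Hox proteins are transcription factors that give cells along the head to tail axis their positional identity. Within a cluster the genes lie in the order of their numbers, and genes of higher number are as a rule switched on later and further toward the tail, a relation called collinearity. They bind DNA together with cofactors of the PBC family (Pbx genes) and the MEIS family, and Polycomb and Trithorax proteins hold them silent or active. Adult tissues keep part of the pattern. Along the Mullerian duct Hoxa9, Hoxa10, Hoxa11 and Hoxa13 mark the oviduct, the uterus, the lower uterus with the cervix, and the vagina, and Hoxa10 and Hoxa11 are needed in the uterus for implantation. In the embryo Hoxa11, Hoxc11 and Hoxd11 are needed for the kidney and Hoxa5 for the lung.

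The clusters also hold microRNA genes, among them those of the miR-10 and miR-196 families. They are shown here because the loci Mir10a, Mir10b, Mir196a-1 and Mir196a-2 were measured beside the Hox genes. Of these loci, Mir10b had reads in the control ovary alone and Mir196a-2 in the control uterus alone, each 1 read as recovered. Mir196b was not analysed here and is printed for its shared seed. The mature sequences are from RefSeq (GRCm38.p6), with the seed, bases 2 to 8, in capitals. miR-10a-5p and miR-10b-5p share 1 seed and lie beside Hoxb4 and Hoxd4. miR-196a-5p, which is known to cleave Hoxb8 messenger RNA, and miR-196b-5p share another and lie beside genes of number 9 and 10.
miR-196a-5p: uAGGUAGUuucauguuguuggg
miR-196b-5p: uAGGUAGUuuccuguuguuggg
miR-10a-5p: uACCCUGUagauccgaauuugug
miR-10b-5p: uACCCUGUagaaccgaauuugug

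Promoters were matched for 21 of the 37 genes, 23 windows of 300 bases in RefSeq (GRCm38.p6) that run from 250 bases before to 50 bases after a start. The sequences of 4 genes that the results turn on are printed 5′ to 3′ along the gene: Hoxa10 and Hoxa11, the highest in uterus, Hoxb8, among those most reduced in the DHEA uterus, and Hoxa5, the highest in lung. Capitals mark matches, on either strand, to 6 motifs: the TATA box TATAAA, a site of HOX with PBX proteins TGATNNAT, a CDX site TTTATNG, the oestrogen response element GGTCANNNTGACC, its core site (a single arm) AGGTCA and the androgen response element AGAACANNNTGTTCT. The core site overlaps the oestrogen response element, and the TATA box and the CDX site can overlap each other. Hoxa10 is at chr6:52234890-52235189, Hoxa11 at chr6:52245761-52246060 and Hoxa5 at chr6:52204538-52204837, all on the minus strand, and Hoxb8 at chr11:96281655-96281954 on the plus strand.
Hoxa10: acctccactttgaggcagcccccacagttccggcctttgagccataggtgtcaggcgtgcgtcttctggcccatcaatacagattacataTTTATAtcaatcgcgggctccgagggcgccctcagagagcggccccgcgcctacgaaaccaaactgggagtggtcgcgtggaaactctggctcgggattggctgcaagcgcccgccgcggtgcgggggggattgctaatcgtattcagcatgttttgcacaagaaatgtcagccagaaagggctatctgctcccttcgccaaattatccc
Hoxa11: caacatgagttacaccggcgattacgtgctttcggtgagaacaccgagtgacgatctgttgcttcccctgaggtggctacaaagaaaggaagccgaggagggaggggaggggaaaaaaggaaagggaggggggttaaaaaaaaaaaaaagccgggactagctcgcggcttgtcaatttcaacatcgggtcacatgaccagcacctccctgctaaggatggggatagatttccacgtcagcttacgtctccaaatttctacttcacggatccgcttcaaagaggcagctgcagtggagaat
Hoxb8: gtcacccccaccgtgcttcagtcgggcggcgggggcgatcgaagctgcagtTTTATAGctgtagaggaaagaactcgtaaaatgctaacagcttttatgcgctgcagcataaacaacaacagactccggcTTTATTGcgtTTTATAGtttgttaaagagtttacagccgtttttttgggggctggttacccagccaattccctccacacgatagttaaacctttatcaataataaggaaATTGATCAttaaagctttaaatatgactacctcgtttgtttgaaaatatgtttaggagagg
Hoxa5: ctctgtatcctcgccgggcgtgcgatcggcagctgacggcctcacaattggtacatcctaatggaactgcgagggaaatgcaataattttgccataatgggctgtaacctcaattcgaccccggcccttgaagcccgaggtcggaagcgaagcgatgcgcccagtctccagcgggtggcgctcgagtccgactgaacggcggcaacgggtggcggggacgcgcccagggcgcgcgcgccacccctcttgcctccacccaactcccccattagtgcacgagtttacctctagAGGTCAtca

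The Hox windows were rich in CpG. Their median ratio of observed to expected CpG was 0.657, against 0.384 over all 32851 windows, and their median GC content was 57.3% against 52.7%. The Hoxb8 window held 3 CDX matches, 2 of them overlapping a TATA box match, and 1 HOX with PBX match, while the Hoxa11 window held no match to any of the 6 motifs. The printed Hoxa10 window held 1 TATA box match, and the other RefSeq window of Hoxa10, at chr6:52240805-52241104, held no match. Of the 23 Hox windows, 4 held a TATA box match (17.4%, against 13.6% of all windows), 3 a HOX with PBX match (13% against 8.85%) and 2 a CDX match (8.70% against 10.9%). The oestrogen core site was found in 7 Hox windows (30.4% against 16.3%), those of Hoxa5, Hoxb4, Hoxc4, Hoxd3, Hoxd4, Hoxd8 and Hoxd10. Neither full hormone response element was found in any of the 23, and they occur in 0.0700% (oestrogen) and 0.00913% (androgen) of all windows.

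Levels are FPKM as deposited, that is, fragments scaled to gene length and library size, so that genes of different length can be compared. Reads were recovered as the smallest whole numbers in proportion to a gene's values, which leaves a common factor open where few libraries hold reads, as for the 1562 genes with reads in 1 library. Of the Hox genes only Hoxc13 is among these, and for the 37 genes 1 read stood for a length of 884 to 6083 bases. The libraries held at least 13201204 (intestine, DHEA) to 20667989 reads (brain, control). Of the 37 genes, 30 reached 1 FPKM in both libraries of at least 1 tissue. The other 7, Hoxa13, Hoxb13, Hoxc13, Hoxd1, Hoxd3, Hoxd12 and Hoxd13, stayed under 1 FPKM in all 20 libraries. Kidney held 24 genes at 1 FPKM or more in both libraries, uterus 18, ovary 16, lung 11, intestine 5, thymus 3, spleen 1, and brain, heart and liver 0. In these bulk libraries fewer cells of a type and less RNA per cell cannot be told apart.

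**Figure D1:**
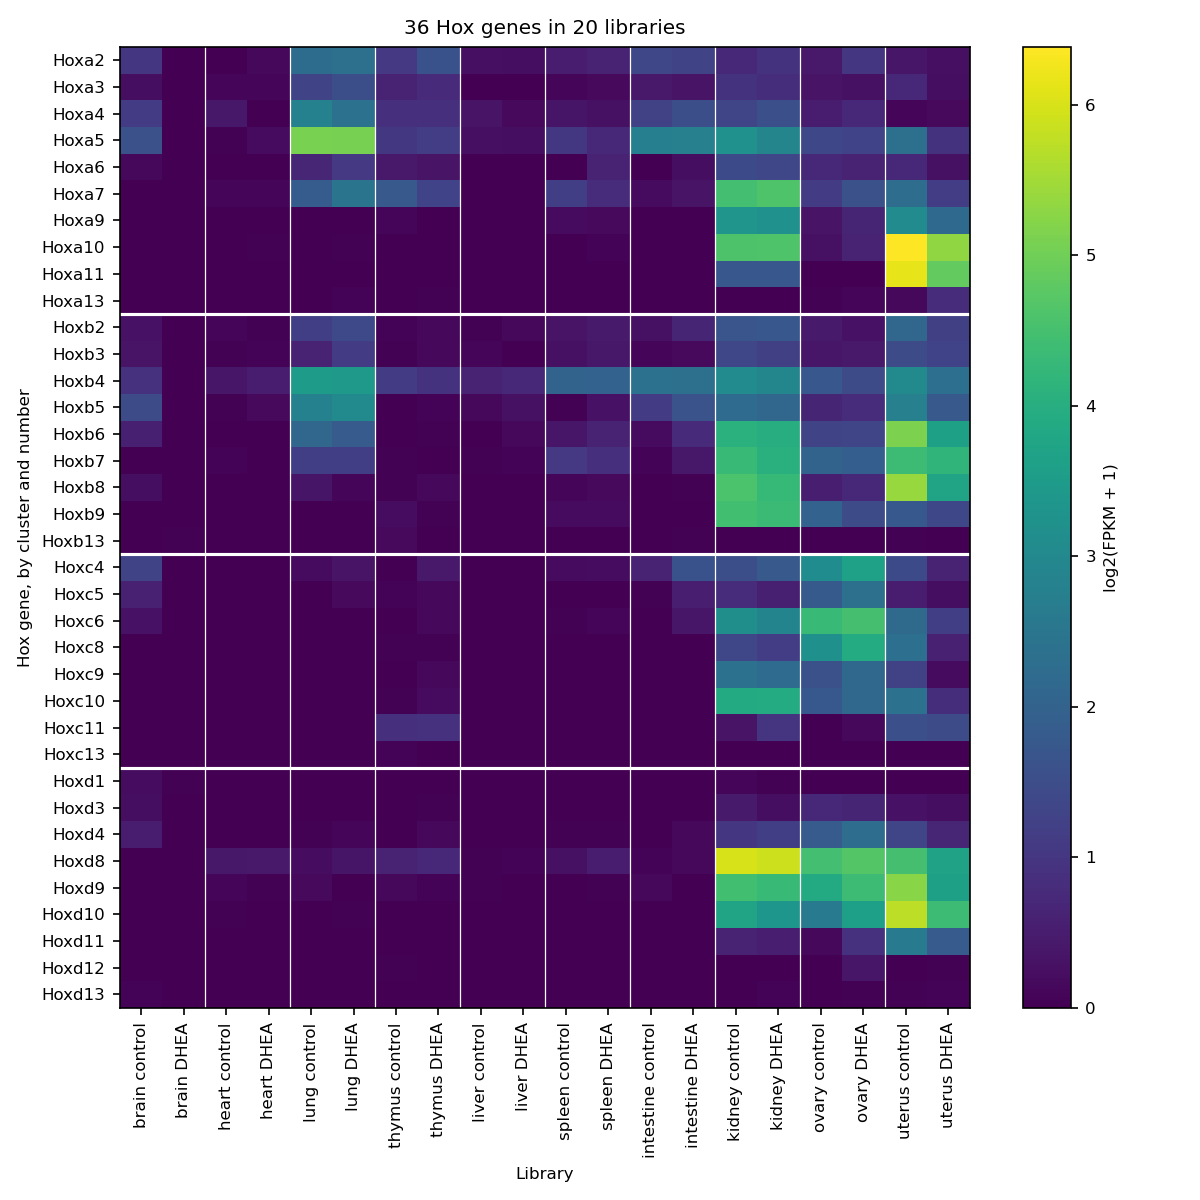
Level of 36 Hox genes (rows, by cluster and number) in the 20 libraries (columns), as log2(FPKM + 1), with white lines between clusters and between tissues. At 1 FPKM or more, uterus and kidney reach Hoxa11, ovary reaches Hoxc10 and Hoxd10, lung holds anterior and central genes of Hoxa and Hoxb, and heart and liver stay under 1 FPKM throughout.

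The tissues differed in how far along each cluster transcription reached. In uterus the highest-numbered genes at 1 FPKM or more in both libraries were Hoxa11, Hoxb9, Hoxc11 and Hoxd11, in kidney Hoxa11, Hoxb9, Hoxc10 and Hoxd10, and in ovary Hoxa7, Hoxb9, Hoxc10 and Hoxd10. In lung Hoxa and Hoxb both ended at number 7 and no Hoxc or Hoxd gene reached the level. Intestine ended at Hoxa5 and Hoxb5, thymus at Hoxa7 and spleen at Hoxb4. The posterior genes made up 62.8% of the summed Hox FPKM in the control uterus and 61.6% in the DHEA uterus. Their share was 36.8 and 37.4% in kidney, 26.7 and 30.6% in ovary, and 0.187 and 0.148% in lung. The summed level was 419.8 FPKM in the control and 177 FPKM in the DHEA uterus, 292 and 270.5 in kidney, 102 and 137 in ovary, 72.8 and 74.1 in lung, and at most 21.3 in every other library.

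**Figure D2:**
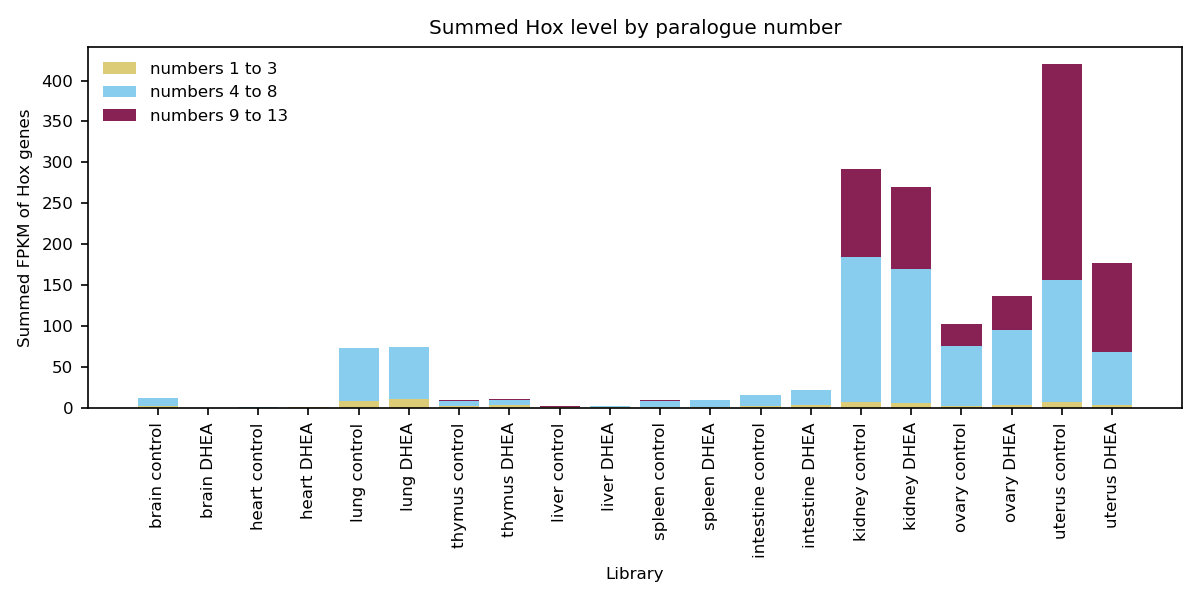
Summed FPKM of the Hox genes in each of the 20 libraries (bars), divided by paralogue number. Posterior genes fill most of both uterus bars (62.8 and 61.6%) and little of the lung bars, and the DHEA uterus bar is lower than the control uterus bar (177 against 419.8 FPKM).

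The clusters were used unevenly too. In the control libraries, ovary drew 40.6% of its summed level from Hoxc and 42.9% from Hoxd, and 5.10% from Hoxa. Lung drew 67.5% from Hoxa and 31.9% from Hoxb. Uterus took 40.3% from Hoxa, 27.5% from Hoxb and 28.1% from Hoxd but 4.14% from Hoxc. Kidney was the most even, with 24.0, 32.1, 10.5 and 33.4% from Hoxa, Hoxb, Hoxc and Hoxd.

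Each tissue was set against the mean of the other 9 with limma on log2(FPKM + 1), and a gene was called at an adjusted p below 0.05 (Benjamini-Hochberg over 17568 genes) and a difference of at least 1 on the log2 scale. Of the 37 Hox genes, 30 passed the filter of this fit. A gene that passed through 1 tissue alone had to be high there, so its call as higher there is not a separate result. Genes of this kind include Hoxc11 and Hoxd11 in uterus, Hoxa3 in lung, Hoxc5 in ovary and Hoxa6 in kidney. With 1 library per tissue and treatment, the control and the DHEA library of a tissue served as its 2 libraries, with treatment as a covariate. These p-values measure how the difference between the 2 libraries varies between tissues, not the spread between mice. Tissues in which a gene has few or no reads add little to that spread.

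Hoxa10 and Hoxa11 were the Hox genes with the highest level in uterus. Hoxa10 stood at 82.4 FPKM in the control and 39.1 in the DHEA uterus, 23.3 and 23.8 in kidney, 0.229 and 0.530 in ovary, and at most 0.0369 in the other 14 libraries, 11 of which had 0 reads. Hoxa11 stood at 69.6 and 27.6 FPKM in uterus and 2.34 and 2.33 in kidney, and the other 16 libraries had 0 reads. Both uterus libraries were thus above every other library for both genes. Against the other tissues, uterus was higher by 5.28 (SE 0.19, limma, adjusted p = 6.01e-09) for Hoxa10 and by 5.29 (SE 0.20, limma, adjusted p = 8.40e-09) for Hoxa11, both on the log2 scale. These SEs are pooled over tissues that mostly lack reads of the 2 genes, and are not the spread within uterus. There the log2 ratio of DHEA over control was -1.06 for Hoxa10 and -1.3 for Hoxa11. Hoxd10 followed at 52.4 and 19.9 FPKM in uterus, 12.3 and 9.26 in kidney and 5.30 and 11.1 in ovary, and was at most 0.0327 elsewhere. Hoxd11, at 5.17 and 2.59 FPKM, and Hoxc11, at 1.94 and 1.76 FPKM, reached 1 FPKM in uterus alone.

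In all, 14 Hox genes were higher in uterus than in the other tissues, against 10.6% of all genes tested, and 0 were lower. They were Hoxa9, Hoxa10, Hoxa11, Hoxb2, Hoxb3, Hoxb5, Hoxb6, Hoxb7, Hoxb8, Hoxc11, Hoxd8, Hoxd9, Hoxd10 and Hoxd11. Among them, Hoxc11 and Hoxd11 passed the filter of the fit through uterus alone. The differences ran from 1.01 for Hoxb3 to 5.29 for Hoxa11 on the log2 scale. Without the control uterus library 9 were called, and without the DHEA uterus library 18. With a pseudocount of 0.1 FPKM, 22 were called higher and 1 lower.

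Kidney carried the broadest set. There 19 Hox genes were higher than in the other tissues, against 11.3% of all genes. Hoxd8 led at 62.7 FPKM in the control and 58.5 in the DHEA kidney, above Hoxa10 and above Hoxa7 at 21.4 and 23.8 FPKM. The Hoxd8 difference from the other tissues was 4.77 (SE 0.17, limma, adjusted p = 3.31e-10). Hoxb9, the last Hoxb gene before the gap to Hoxb13, stood at 20.9 and 19.4 FPKM, against 3.03 and 1.79 in ovary and 2.40 and 1.63 in uterus. Kidney was also the tissue with the highest Hoxa9, at 9.08 and 8.37 FPKM. With a pseudocount of 0.1 FPKM, 29 were called.

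Ovary stood apart through Hoxc, which summed to 41.6 FPKM in the control and 58.7 in the DHEA ovary, against 30.8 and 29.3 in kidney. Its Hoxd sum, 43.9 and 60.9 FPKM, was below the 97.7 and 88.7 FPKM of kidney. Hoxd8 was at 21.3 FPKM in the control and 24.5 in the DHEA ovary, Hoxc6 at 19.0 and 21.8, Hoxd9 at 14.0 and 19.6 and Hoxc8 at 8.17 and 14.1. Hoxc6, Hoxc8, Hoxc4, Hoxc5 and Hoxd4 were each higher in both ovary libraries than in any library of another tissue. The fit called 11 Hox genes higher in ovary, against 18.5% of all genes. Hoxc6 differed most, by 3.84 (SE 0.20, limma, adjusted p = 2.39e-08). Hoxa11 had 0 reads in both ovary libraries.

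Lung held mainly central genes. They made up 88.3% of the summed Hox FPKM in the control and 86.0% in the DHEA lung, and the anterior genes 11.5 and 13.8%. Hoxa5 stood at 33.3 FPKM in the control and 32.5 in the DHEA lung, and the next highest library of another tissue, the control kidney, had 8.39. Hoxb4 was at 10.5 and 9.69 FPKM in lung and Hoxb5 at 6.04 and 7.12. The fit called 6 Hox genes higher in lung, against 14.1% of all genes: Hoxa2, Hoxa3, Hoxa4, Hoxa5, Hoxb4 and Hoxb5. Of these, Hoxa3 passed the filter of the fit through lung alone. The fit called 5 lower, against 4.53% of all genes: Hoxa10, Hoxc6, Hoxd8, Hoxd9 and Hoxd10. Hoxa5 was higher by 3.76 (SE 0.30, limma, adjusted p = 1.31e-06). With a pseudocount of 0.1 FPKM, 12 were higher and 13 lower.

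Intestine had Hoxa5 at 5.70 and 5.83 FPKM, Hoxb4 at 4.17 and 4.12 and Hoxb5 at 1.18 and 2.11. Only Hoxa5 was called higher there (against 9.95% of all genes), and 7 Hox genes were called lower (against 15.9%). Without the DHEA intestine library 0 were higher. The caudal factors Cdx2 and Cdx1, which act upstream of Hox genes in the embryo, stood at 66.8 and 73.5 FPKM and at 25.5 and 29.8 FPKM in intestine. Cdx2 was at most 0.0746 FPKM elsewhere, while Cdx1 was also found in thymus, at 4.41 and 3.25 FPKM.

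Thymus held Hoxa7 at 2.44 and 1.45 FPKM, Hoxa2 at 1.07 and 2.03 and Hoxa5 at 1.06 and 1.23. Hoxc11, otherwise a gene of uterus, kidney and the DHEA ovary, was at 0.810 and 0.891 FPKM in thymus. Spleen held Hoxb4 at 3.09 and 3.05 FPKM, and Hoxa7 at 1.27 and 0.755. No Hox gene passed 0.401 FPKM in heart or 0.674 FPKM in liver. The fit called 8 Hox genes lower in thymus (against 11.3% of all genes), 5 in spleen (9.63%), 10 in brain (16.9%), 12 in heart (22.0%) and 11 in liver (34.6%), and 0 higher in any of the 5 tissues. Without the DHEA spleen library 8 were lower in spleen. With a pseudocount of 0.1 FPKM the counts lower were 15 in thymus, 16 in spleen, 23 in brain, 29 in heart and 27 in liver, with 3 higher in thymus.

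Uterus was then compared directly with 3 tissues. Against ovary, 12 Hox genes were higher in uterus (6.39% of all genes) and 6 were lower (9.75%). The 12 held Hoxa9, Hoxa10 and Hoxa11 with 6 Hoxb genes from Hoxb2 to Hoxb8, Hoxb4 and Hoxb7 among them, while 5 of the 6 lower genes belonged to Hoxc. Hoxc6 was lower in uterus by 2.72 on the log2 scale (3.65 and 1.26 FPKM against 19.0 and 21.8 in ovary). Without the control uterus library 7 were higher and 7 lower.

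Against kidney, 4 Hox genes were higher in uterus (16.1% of all genes): Hoxa10, Hoxa11, Hoxd10 and Hoxd11, all posterior. Of these, Hoxd11 passed the filter of the fit through uterus alone. Another 8 were lower (10.6%), among them Hoxb9 by 2.82 and Hoxa7 by 2.84 on the log2 scale. Hoxa11 differed most, by 3.75 (SE 0.27, limma, adjusted p = 4.87e-07). Without the control uterus library only 1 was higher and 10 lower. Against intestine, 18 were higher (22.3%) and 3 lower (9.45%), the 3 being Hoxa2, Hoxa4 and Hoxa5. Without the control uterus library 11 were higher, and without the DHEA uterus library 1 was lower.

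Within a tissue the control and DHEA libraries were compared as log2((DHEA + 1)/(control + 1)) among genes with a pair mean of 1 FPKM or more, with no test, since there is 1 library per group. Folds are FPKM ratios with exact Clopper-Pearson 95% intervals from the reads. They cover counting error only.

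In the uterus pair all 23 Hox genes read were below 0, and 12 were at least 2-fold lower in the DHEA library, against 9.99% of all genes read. The median of the 23 was -1.01, against -0.12 over all 12836 genes. Hoxa10 was 2.11-fold lower in the DHEA library (interval 2.01 to 2.21, from 4319 and 2614 reads), Hoxa11 2.52-fold (2.36 to 2.70) and Hoxd10 2.63-fold (2.41 to 2.88). After centring on the median of the tissue 22 of the 23 were below 0 and 8 were 2-fold lower. Hoxa10 was not among those 8, at -0.94 after centring, and Hoxa11 was, at -1.18.

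The genes did not move by 1 common factor. Among the genes read, Hoxc8 and Hoxc10 had the largest folds, with 29 and 31 reads in the DHEA library. Hoxc8 went from 4.03 to 0.500 FPKM (8.05-fold, 5.42 to 12.4) and Hoxc10 from 4.28 to 0.793 FPKM (5.39-fold, 3.62 to 8.26). Hoxc11, in the same cluster, went from 1.94 to 1.76 FPKM (1.10-fold, 0.774 to 1.56), an interval that includes no difference. In Hoxb, Hoxb8 went from 40.9 to 12.2 FPKM (3.36-fold, 3.07 to 3.68) and its neighbour Hoxb7 from 19.7 to 17.2 FPKM (1.14-fold, 1.01 to 1.30). The intervals of these neighbours do not overlap. Hoxb6 went from 34.1 to 11.3 FPKM, Hoxd9 from 36.7 to 11.3 and Hoxa5 from 4.09 to 0.911. By class, the median was -1.02 over 12 central and -1.06 over 9 posterior genes, and -0.55 over 2 anterior genes. By cluster, it was -1.12 in Hoxa, -0.8 in Hoxb, -1.04 in Hoxc and -0.84 in Hoxd.

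**Figure D3:**
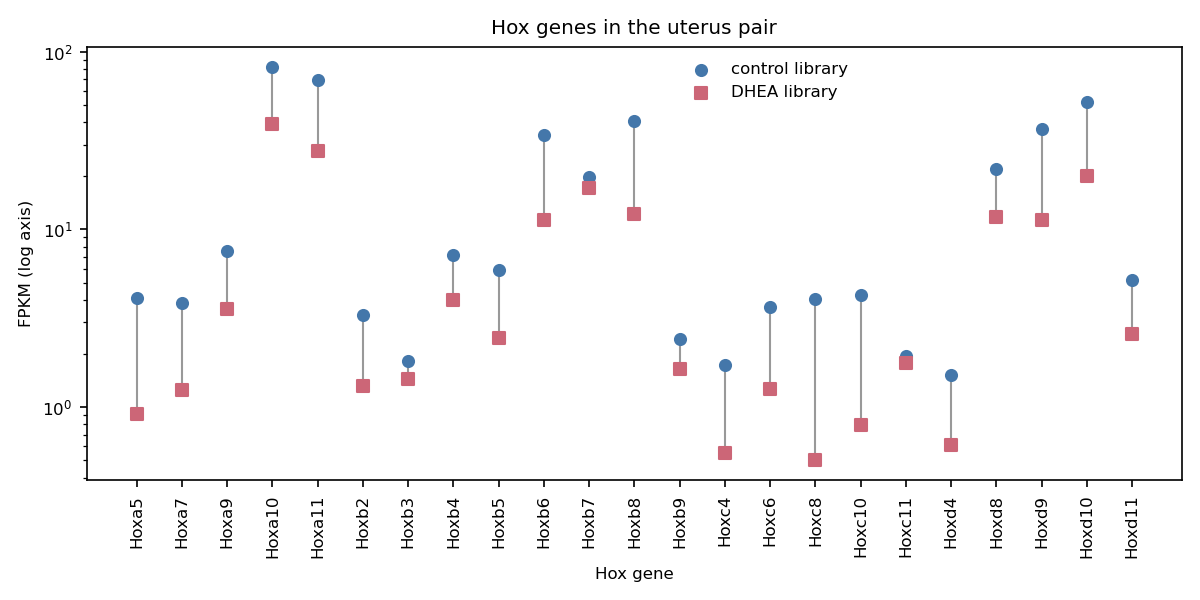
FPKM (log axis) of the 23 Hox genes read in the uterus pair, with the control library as circles and the DHEA library as squares joined by a line. The DHEA value is lower for all 23 genes, with a long drop for Hoxc8 and a short one for Hoxb7 and Hoxc11.

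Counting intervals lay wholly below a ratio of 1 for 24 of the 33 Hox genes with reads in both uterus libraries. For 1 gene, Hoxa13, the interval lay wholly above it. The share of all genes with such intervals was not computed, so these counts are not read as particular to Hox genes. Hoxa13 was named after its values were seen and was too low to be read by the rule above. It had 4 reads in the control and 38 in the DHEA uterus (0.101 and 0.751 FPKM, 7.44-fold higher, 2.68 to 28.7). It marks the caudal end of the female tract.

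Markers of several cell types also differed between these 2 libraries. Smooth muscle markers (8 genes) summed to 1626 FPKM in the control and 5039 in the DHEA uterus, with 6 of 8 at least 2-fold higher (7.76% of all genes were), and fibroblast markers (8 genes) to 1544 and 2706 with 3 higher and 1 lower. Adipocyte markers (8 genes) summed to 1254 and 189 FPKM with 7 of 7 read lower, and endothelial markers to 253 and 96.5 with 6 of 8 lower. The uterine stroma list summed to 686 and 548 FPKM (1 higher, 3 lower of 8) and the uterine epithelium list to 911 and 1035 (1 higher, 3 lower of 8). Of the oviduct list, Ovgp1 stood at 331 and 0.947 FPKM, Foxj1 at 7.63 and 0.168 and Sprr2f, also a gene of uterine epithelium, at 62.4 and 1779. Of all these markers, 1 of the adipocyte list was at 0 in the control library, and none was at 0 in the DHEA library. Their part in the Hox difference was not tested.

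The kidney pair showed no such difference. None of its 24 Hox genes read was 2-fold higher or lower (1.07% of all genes were higher and 0.635% lower), and their log2 ratios ran from -0.37 to 0.26. Hoxa10 stood at 23.3 and 23.8 FPKM there, a ratio of 1.02 with an interval of 0.944 to 1.10. Hoxd10 was 1.32-fold lower in the DHEA kidney (1.13 to 1.55). The 11 genes read in lung held none past 2-fold either (1.35% of all genes were higher and 0.818% lower), and Hoxa5 was at 33.3 and 32.5 FPKM.

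In the ovary pair the 6 Hoxc and 4 Hoxd genes read all had log2 ratios above 0. Of 16 genes read 12 were above 0, with a median of 0.41 against 0.04 over all genes, but none passed 2-fold (2.13% of all genes were higher and 2.55% lower). Hoxd10 came nearest, from 5.30 to 11.1 FPKM (2.09-fold, 1.73 to 2.53, or 0.94 on the log2 scale with 1 FPKM added, and past 2-fold with a pseudocount of 0.1 FPKM), and Hoxc8 went from 8.17 to 14.1 FPKM (1.73-fold, 1.53 to 1.96). Hoxb9 ran the other way, from 3.03 to 1.79 FPKM (1.70-fold lower, 1.27 to 2.30). Beside this, the smooth muscle markers summed to 550 and 834 FPKM in the control and DHEA ovary, with 0 of 8 past 2-fold. Of the ovary list the steroid genes Star (171 and 13.1 FPKM) and Cyp11a1 (1256 and 183) were lower and Fshr (8.07 and 37.8), the receptor of follicle-stimulating hormone, was higher. Their part in the result was not tested.

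In intestine 1 of 6 genes read was 2-fold higher, against 11.9% of all genes. It was Hoxc4, from 0.521 to 2.06 FPKM (3.95-fold, 2.38 to 6.85), and it no longer passed 2-fold after centring on the tissue median. B cell markers were higher in the same library, 4 of 4 read, with Cd79a at 3.94 and 203 FPKM. Smooth muscle markers summed to 476 and 966 FPKM there, with 2 of 8 called higher, Actg2 (99.3 and 265 FPKM) and Cnn1 (40.9 and 107). The small intestine list summed to 7279.9 and 5638 FPKM with 2 of 8 lower, and Pdx1, a factor of the duodenum, went from 65.2 to 19.3. Their part in the result was not tested. In thymus (4 genes read) and spleen (2 genes read) none passed 2-fold, and in heart and liver none could be read.

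**Figure D4:**
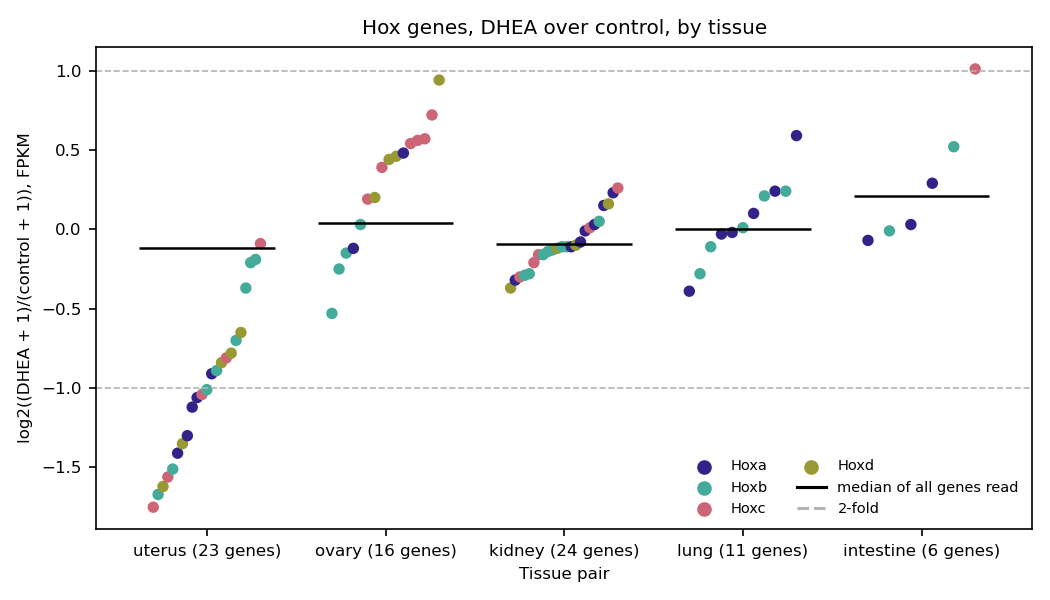
Log2 ratio of FPKM + 1, DHEA over control, of the Hox genes read in 5 tissue pairs, coloured by cluster, with the median of all genes read as a black line and 2-fold as dashed lines. The uterus genes lie between -1.75 and -0.09, the ovary genes between -0.53 and 0.94 and the kidney genes between -0.37 and 0.26.

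The brain pair differed almost completely in Hox reads. The control library held 579 reads of Hox genes and the DHEA library 2, a ratio of 230.5-fold (63.5 to 1908). Hoxa5 had 79 reads against 0 (2.01 and 0 FPKM, at least 21-fold lower against a floor of 3 reads), Hoxb5 102 against 0, Hoxc4 79 against 0 and Hoxb4 48 against 0. The reads of the control brain ended at number 8: Hoxb8 had 10 reads, and of the posterior genes only Hoxd13 had any, with 2. Hoxa5 was the 1 gene with a pair mean of 1 FPKM, and it was called lower, against 5.91% of all genes. Without a filter on low values Hoxa4, Hoxb5 and Hoxc4 passed 2-fold as well.

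The caudal hindbrain and the spinal cord express Hox genes and the forebrain lies in front of their domains, so regional markers were read in the same libraries. All 8 hindbrain and cerebellum markers read, of 9 listed, were 2-fold lower in the DHEA brain, and the list summed to 774 FPKM in the control and 37.0 in the DHEA library. Gabra6 of cerebellar granule cells went from 108 FPKM to 0, and En2, which marks the boundary of midbrain and hindbrain, from 25.0 to 0.255. Slc6a5, the glycine transporter of hindbrain and spinal neurons, went from 27.4 to 0.0250. Of 7 forebrain markers 6 were higher in the DHEA brain, against 4.81% of all genes, and the list summed to 14.5 and 172 FPKM, with Neurod6 at 3.07 and 73.7. Their part in the Hox difference was not tested.

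**Figure D5:**
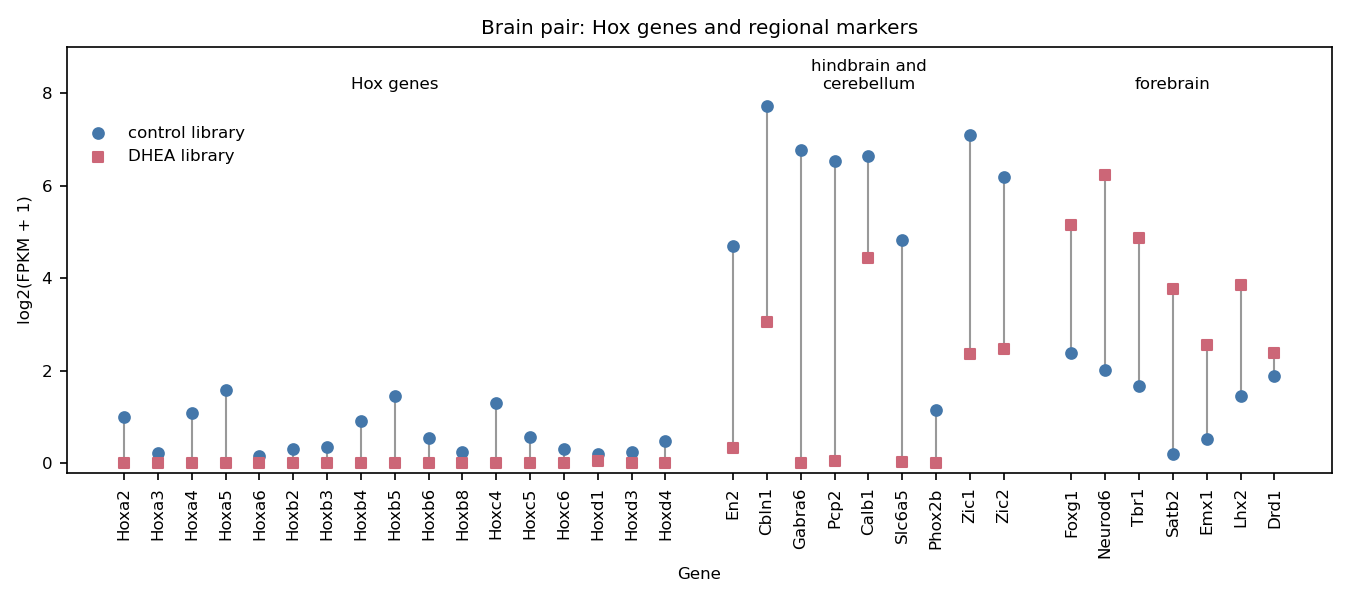
Level, as log2(FPKM + 1), of 17 Hox genes at 0.1 FPKM or more in the control brain, of 9 hindbrain and cerebellum markers and of 7 forebrain markers, in the control (circles) and the DHEA brain (squares). Hox genes and hindbrain markers are higher in the control library, and forebrain markers are higher in the DHEA library.

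A difference shared by the 10 tissue pairs was not called for any Hox gene. The fit could hardly call one, since no Hox gene reached 1 FPKM in both libraries of more than 6 tissues. A limma fit of DHEA against control with tissue as a block called 0 of the 30 Hox genes tested at an adjusted p below 0.05, and 0 at an unadjusted p below 0.05. Over all genes these shares were 0.00569% and 7.09%. Hoxb4 had the smallest p, with a log2 difference of -0.22 (SE 0.11, limma, adjusted p = 0.696). Hoxa10 differed by -0.06 (SE 0.11, limma, adjusted p = 0.866) and Hoxa11 by -0.13 (SE 0.12, limma, adjusted p = 0.751). Both genes reached 1 FPKM in 2 tissues only, and the pairs with few or no reads pull these averages toward 0.

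Of the cofactors with which Hox proteins bind DNA, 3 of 9 were higher in uterus than in the other tissues, against 10.6% of all genes, among them Meis1 at 12.8 and 10.7 FPKM and Meis2 at 18.0 and 9.04. None of the 8 cofactors read in the uterus pair passed 2-fold, and their median was -0.15. In kidney 0 of 9 were higher, against 11.3% of all genes. The Polycomb list held 2 of 18 genes 2-fold lower in the DHEA uterus, Cbx6 (50.8 and 17.9 FPKM) and Cbx7 (6.65 and 1.88), and the Trithorax list 1 of 9, Kdm6b, which removes a Polycomb mark (13 and 5.59 FPKM). These shares are near the 9.99% of all genes that were lower in this pair. The median log2 ratio was -0.48 over the 18 Polycomb genes and -0.22 over the 9 Trithorax genes, against -0.12 over all genes.

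Genes known to act with or under HOXA10 in the uterus were largely uterine, 16 of 20 being higher in uterus than in the other tissues, against 10.6% of all genes. In the uterus pair 3 were 2-fold higher and 6 lower, against 7.76% and 9.99% of all genes, and their median of -0.14 was near that of all genes (-0.12). The homeobox gene Msx1 went from 121 to 5.36 FPKM, the signal Ihh from 10.0 to 0 and the stromal factor Hand2 from 35.1 to 7.50. The implantation cytokine Lif went from 0.330 to 6.50 FPKM, Wnt4 from 4.37 to 17.8 and the integrin Itgb3 from 8.64 to 24.2. The oestrogen receptor Esr1 (46.3 and 42.1 FPKM) and the progesterone receptor Pgr (33.2 and 40.8) did not pass 2-fold.

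Retinoic acid, which activates Hox genes in the embryo, is made, bound and cleared by 15 listed genes, of which 8 were higher and 1 lower in uterus than in the other tissues, against 10.6% and 4.18% of all genes. In the uterus pair the clearing enzyme Cyp26a1 went from 23.8 to 0.567 FPKM, the retinol receptor Stra6 from 11.8 to 1.32 and Crabp1 from 5.21 to 0.487. The making enzyme Aldh1a2 went from 34.7 to 217 FPKM and the binding protein Crabp2 from 0.613 to 44.7. Of 12 Mullerian and renal factors, 7 were higher in uterus and 9 in kidney, against 10.6% and 11.3% of all genes. Pax2, Pax8 and Emx2 were among both.

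Non-coding genes of the clusters were read beside their Hox neighbours. Hoxa11os, antisense to Hoxa11, went from 14.3 FPKM (707 reads) in the control to 2.59 FPKM (163 reads) in the DHEA uterus and was at most 0.594 FPKM elsewhere. Its exons overlap those of Hoxa11, and since the strand setting is not given, reads of the 2 genes cannot be told apart. In the GENCODE M21 annotation the exons of 10 of the 37 Hox genes overlap a gene on the other strand, and those of 9 a gene on the same strand. Hoxb5os was highest in kidney, at 33.3 and 27.4 FPKM, with 7.70 and 4.35 in uterus.

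The Mir196a-1 locus, between Hoxb9 and Hoxb13, had 167 and 78 reads in kidney, 66 and 58 in ovary, 10 and 7 in uterus, 1 and 3 in spleen and 0 in the other 12 libraries. Its neighbour Hoxb9 was highest in kidney as well. The value of such a short entry is not a measure of the mature miRNA printed above. Hotair, the non-coding RNA between Hoxc11 and Hoxc12, did not pass 0.124 FPKM in any library.

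Over the 20 libraries, the genes outside the Hox family whose log2(FPKM + 1) was most like Hoxa10 among 14812 were Fxyd4 (Pearson r 0.994), Dkk2 (0.972), Pax8 (0.949), C1qtnf3 (0.944) and Vwa2 (0.929). Fxyd4 stood at 92.4 and 41.2 FPKM in uterus, 16.0 and 14.7 in kidney and at most 0.273 elsewhere. Unlike Hoxa10, Dkk2 (8.23 and 12.7 FPKM) and C1qtnf3 (32.8 and 142 FPKM) were higher in the DHEA than in the control uterus. For Hoxa11 they were Mab21l3 (0.954), Fxyd4 (0.952), Gdf7 (0.947), BC048679 (0.946) and Fads2b (0.935). Gdf7 went from 19.2 to 4.94 FPKM in the uterus pair and Fads2b from 135 to 48.5. These correlations describe 10 tissues, of which uterus and kidney hold nearly all Hoxa10 and Hoxa11, and the points share library and depth.

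Among the 20 Hox genes with a mean of 1 FPKM or more, neighbours in a cluster were the most alike over the libraries. Pairs whose numbers differ by 1 had a median r of 0.93 (10 pairs), all pairs within a cluster 0.73 (45 pairs), pairs of equal number in different clusters 0.79 (15 pairs) and all pairs from different clusters 0.56 (145 pairs).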

How the data were processed

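RNA of 10 tissues was measured in 20 libraries. The authors deposited FPKM values by gene symbol. HISAT2 2.0.5 and the builds hg38 and mm39 are named in the submitters' processing notes. For the counter, annotation and strand setting, the sources used here give nothing. The authors' deposited table of log2 fold values, 11372 genes, holds 0 Hox genes and was not used. Reads were recovered from the FPKM values as the smallest whole numbers in proportion to them (100.0% of 24769 genes gave such numbers within a relative 1e-11, a step checked on simulated data). For genes with reads in few libraries these can be too small by a common factor. They served for counting intervals and a floor of 3 reads. PCR reads are not independent molecules.

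Tissues and treatments were compared on log2(FPKM + 1) with limma 3.58.1 under R 4.3.3; this scale understates the change of low genes. The fits held 17568 genes at 1 FPKM or more in at least 2 libraries. Adjusted p-values are Benjamini-Hochberg over all genes. Pairs were called past 2-fold at a pair mean of 1 FPKM. Values of 1 member are not reported here by name; counts and sums include it. Members, gene lists and thresholds were chosen with earlier results of these data known.

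Named were Hoxa10 and Hoxa11, the 3 highest Hox genes of a tissue, the highest-numbered gene per cluster and tissue, genes past 2-fold in a pair, the 5 genes most like Hoxa10 and Hoxa11, and at most 3 per direction of each list. Alternatives were another pseudocount, other filters, rescaling by median ratios, centring, leaving out libraries or tissue pairs, and no tissue block. Leaving out both brain libraries was added after seeing the data. Coordinates are RefSeq GRCm38.p6, not the build of the libraries, and serve only for the printed sequences.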

Additional observations from a re-analysis of the deposited data

Results flagged for a closer look

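Hox genes that were 2-fold different in 1 tissue pair and whose counting interval lay on the other side in another pair are listed here by the difference of their 2 log2 ratios. None of these differences was tested, since each ratio rests on 1 library per treatment. The share of all genes that would be listed by the same rule was not computed, so the number listed is not read as particular to Hox genes. Between uterus and ovary, both tissues of the female tract, 6 genes were lower in the DHEA uterus and higher in the DHEA ovary: Hoxc8 (-1.75 in uterus and 0.72 in ovary, a difference of -2.47), Hoxd10 (-1.35 and 0.94, -2.29), Hoxd9 (-1.62 and 0.46, -2.08), Hoxc10 (-1.56 and 0.39, -1.94), Hoxa7 (-1.12 and 0.48, -1.59) and Hoxc6 (-1.04 and 0.19, -1.23). Hoxa7 also differed between uterus and lung by -1.70 and between uterus and kidney by -1.26. Hoxb5 differed between uterus and lung by -1.21 and between uterus and intestine by -1.52. Hoxc4 was higher in the DHEA intestine and lower in the DHEA uterus, a difference of 1.82.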

How the results depend on the processing

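Each count rests on 1 library per tissue and treatment, and the reads limit members under 1 FPKM. Over 58 results, 254 of 290 alternatives kept a count within 1.5 times or a value within its spread, and 0 reversed a called value. Only the uterus log2 ratios of Hoxa10 and Hoxa11 could be scored as reversed. Counts of 0 that stayed at 0 were scored as kept, also in pairs where no Hox gene was read. These totals are therefore no measure of how stable the results are. With a pseudocount of 0.1 FPKM, Hox genes higher were 22 in uterus, 29 in kidney, 12 in lung and 3 in thymus, and lower were 23 in brain, 29 in heart, 13 in lung, 15 in thymus, 27 in liver, 16 in spleen, 15 in intestine and 1 each in ovary and uterus, and 1 was 2-fold higher in the ovary pair. Over the fits that left out a library of the tissue, counts ran from 9 to 18 higher in uterus, 7 to 12 in uterus over ovary, 1 to 5 in uterus over kidney, 11 to 19 in uterus over intestine with 1 to 3 lower, 4 to 8 lower in spleen and 0 to 1 higher in intestine. Without both brain libraries 9 were lower in spleen. Requiring a mean of 1 FPKM left 3 genes lower in uterus than in ovary, where fewer genes were tested. After rescaling 2 were higher in intestine, and the mean summed FPKM became 60.7 in lung, 8.13 in thymus, 7.53 in spleen, 24.6 in intestine and 83.0 in ovary. At a pair mean of 5 FPKM, where fewer genes were read, 6 were 2-fold lower in the uterus pair, 0 in the brain pair and 0 higher in the intestine pair. Without a filter 4 were lower in the brain pair, and after centring 0 were higher in the intestine pair and 8 lower in the uterus pair. The cause was not tested elsewhere. In the fit of DHEA across tissues 0 Hox genes were called under every alternative, and 0 at an unadjusted p below 0.05. The alternatives included the fits without each tissue pair and without the tissue block. Most Hox genes were under 1 FPKM in most tissues, so none of these fits could readily call a shared difference. The labels give no replicate numbers, so the pairing in that fit is by tissue. The authors' deposited log2 values gave no value, since they hold 0 Hox genes.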
